A study of Arabidopsis thaliana with 12 samples.

Results

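Dry seeds of an Arabidopsis thaliana line labelled atalkbh1a/1b were compared with dry wild-type seeds, both of ecotype Col-0. The comparison took the 6 dry libraries of 12 in the series, 3 wild-type and 3 mutant-labelled, chosen by their titles. It covered all 32833 loci of the deposited table, and 12307 of them reached the level needed for a test. The other 6 libraries came from seeds of the same genotypes kept in water at 4 °C for 2 days (stratification) and are used here to look again at loci that differed in dry seeds. The dry seeds are labelled as control at day 0. Neither the alleles nor the targeted loci are given in the labels, and they do not say if the replicates are different plants or different harvests of seed. P-values here rest on the spread among the 3 libraries of each group, and that spread may be technical.

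A dry Arabidopsis seed is metabolically quiet and carries a stored pool of messenger RNA laid down while the embryo matured. That pool holds transcripts for storage proteins, oil body proteins, late embryogenesis abundant (LEA) proteins and heat shock proteins, together with the regulators of abscisic acid (ABA) and gibberellin that govern dormancy. AlkB homologues are iron- and 2-oxoglutarate-dependent dioxygenases that remove methyl groups from nucleic acids. In animals and plants different members act on DNA or on RNA, and the series title names ALKBH1A and ALKBH1B as demethylases of N6-methyladenine in DNA. Values below are RPKM, in which the reads of a locus are scaled by transcript length and library size, and log2 changes are mutant-labelled over wild type on the scale log2(RPKM + 1). A gene was said to rise or fall when limma's adjusted p over all 12307 genes was under 0.05.

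The mutant-labelled dry libraries were less alike than the wild-type ones, and 1 of them stood apart. Library sizes were 18.65 to 22.56 M reads in wild type and 17.76 to 18.67 M in the mutant-labelled group. Nuclear ribosomal RNA took 10.79% of the reads of mutant-labelled library 2 and 3.25% to 4.06% of the reads of the other 5. The median log2 level of the tested genes was 2.716 in that library and 2.956 to 2.998 in the others. Across genes, wild-type libraries correlated with each other at r = 0.9952 to 0.9955 and mutant-labelled libraries at r = 0.9879 to 0.9937. Annotated loci, ribosomal RNA included, held 75.2% of the reads of mutant-labelled library 2 and 89.0% to 90.2% of those of the other 5. RPKM divides by all reads of a library, so more ribosomal RNA, or more reads outside loci, lowers every other value. The part of each in the low level of library 2 was not tested. For gene lists and named genes, calls that differ without library 2 are given beside the result. Seed identity was plain in all 6: the summed level of 4 storage and LEA markers was 68490 to 91860 RPKM. Seed coat markers summed to 0.6675 to 1.134 RPKM and the pollen marker to 0.1661 to 0.2945 RPKM.

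In all, 104 genes rose, 0.845% of those tested, and 504 fell, 4.1%. Together these 608 genes were 4.94% of those tested, and 2493 genes had an unadjusted p under 0.05. Most changes were small: 8 of the genes that rose and 17 of those that fell changed at least 2-fold on the log2 scale, and the median change was 0.58 and -0.57. The 3 mutant-labelled libraries all lay above the 3 wild-type libraries for 575 genes, 4.67%, and all lay below them for 2990 genes, 24.3%. The balance of the directions depended on mutant-labelled library 2 and on scaling. Risers were 17.1% of the calls as deposited, and with each library centred on its median they were 38.4%, with 585 genes higher (4.75%) and 938 lower (7.62%). Without library 2, 868 genes rose (7.05%) and 1143 fell (9.29%), and 98 and 477 of the genes first called were among them. The median change of all tested genes was -0.10 as deposited, -0.01 without library 2 and 0.03 with ribosomal RNA left out of the scaling. That last scaling used the reads in annotated loci other than ribosomal RNA, so it also left out reads outside such loci. Where the spread was taken over all 12 libraries, stratified ones included, 4 genes rose (AT1G64795, AT1G75945, AT3G44006 and ILA) and 3 fell (AT5G01780, ENODL15 and AT4G34071). With no filter on low values, 13 rose and 31 fell. A group of 215 genes, 30 higher and 185 lower, kept its call under 3 scalings and on leaving out each of the 6 libraries in turn. The genes below that belong to this group are called stable, which says nothing of the other settings.

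**Figure D1:**
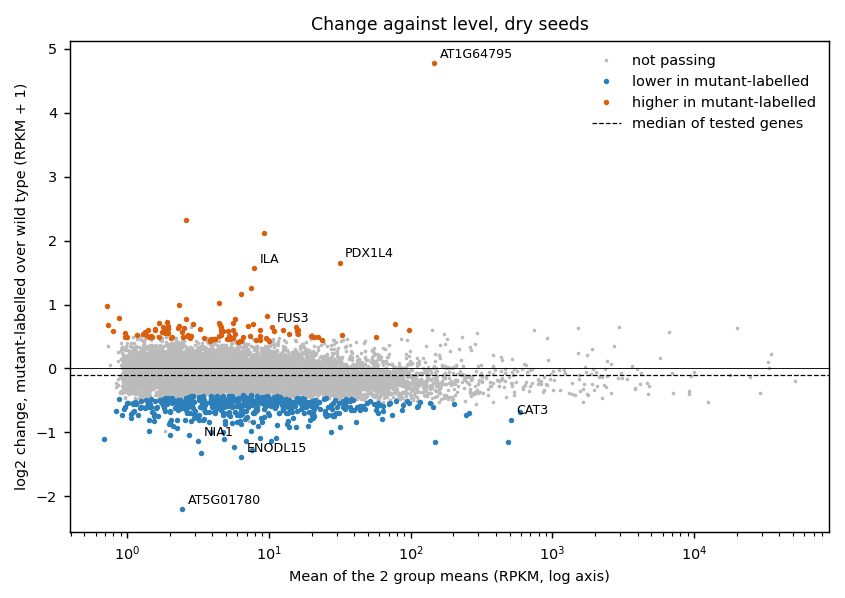
Log2 change of each tested gene in dry seeds (y axis, mutant-labelled over wild type, log2 of RPKM + 1) against the mean of the 2 group means (x axis, RPKM, log axis). Orange points are the 104 genes that rose, blue points the 504 that fell, grey points the rest, and the dashed line is the median of all tested genes, -0.10.

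The 30 stable higher genes lay above wild type by a median of 0.73, 0.63 and 0.78 in mutant-labelled libraries 1, 2 and 3. The 185 stable lower genes lay below it by a median of -0.54, -0.92 and -0.67. All tested genes had medians of 0.01, -0.28 and -0.03 in the same libraries. By these medians the 3 mutant-labelled libraries carried both shifts, and library 2 was lower than libraries 1 and 3 in all 3 sets. The stable genes were chosen by their change and by keeping their call without each library in turn. That choice favours genes changed in all mutant-labelled libraries, so the values describe the set and are no result about evenness.

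**Figure D2:**
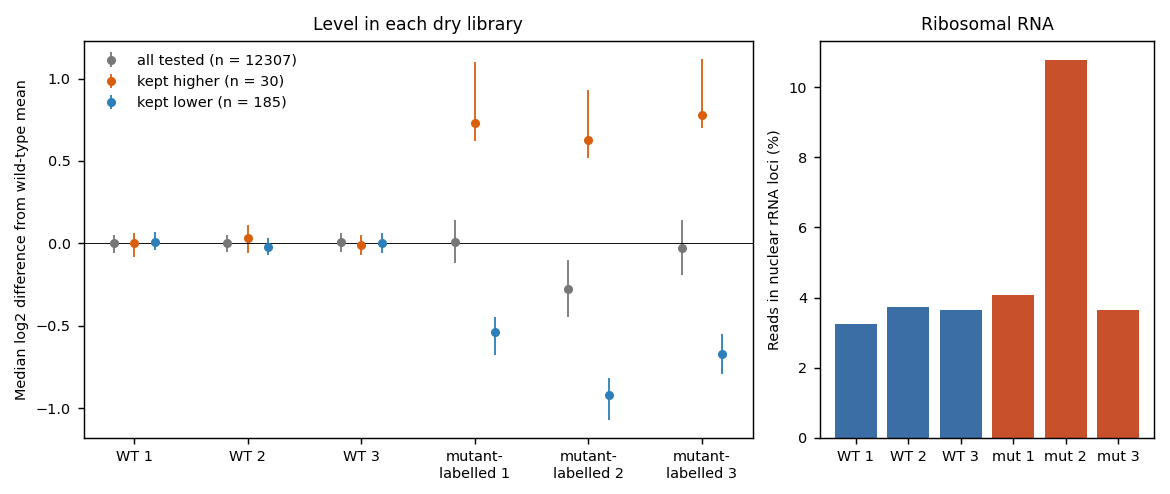
Left, median log2 difference of each dry library from the wild-type mean, with quartiles as bars, for all 12307 tested genes (grey), 30 stable higher genes (orange) and 185 stable lower genes (blue). Right, percentage of reads in nuclear ribosomal RNA loci in each dry library; mutant-labelled library 2 stands at 10.79%.

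The family of the genes named in the genotype label was examined first. AT1G11780, listed here as ALKBH1A from general knowledge since the files do not pair the name with a locus, stood at 4.49, 4.57 and 4.44 RPKM in wild type and 5.59, 4.41 and 6.63 RPKM in mutant-labelled seeds. The groups overlapped, with a log2 change of 0.24 ± 0.13 (SE; limma adjusted p = 0.323) as deposited and 0.37 ± 0.10 (limma adjusted p = 0.0248) without library 2. AT3G14140, listed as ALKBH1B, had 1 to 4 reads in each dry library, too few to compare. The level of a whole transcript does not test for an insertion or a small deletion, so the libraries are called mutant-labelled. AT5G01780, a 2-oxoglutarate-dependent dioxygenase gene of the same family at chr5:302098-304279, minus strand, stood at 5.04, 4.69 and 4.22 RPKM in wild type. It stood at 0.214, 0.285 and 0.178 RPKM in the mutant-labelled libraries. The groups were far apart, and the mean was 20.6-fold lower, a log2 change of -2.20 ± 0.13 (limma adjusted p = 1.2e-10). AT5G01780 reached the level needed for a test only through its wild-type libraries, which fixed the lack of overlap in advance. It had the lowest log2 change of all genes that fell. The other 5 tested family members did not pass: AT3G14160 at -0.27, AT4G20350 at -0.13, AT1G31600 at 0.20, AT4G36090 at -0.02 and ALKBH10B, a demethylase of N6-methyladenosine in RNA, at -0.06. The values of AT4G36090 and ALKBH10B turned positive with median centring (0.07 and 0.03), and AT1G31600 and AT1G11780 passed there at 0.29 and 0.33. Without library 2 AT1G31600 passed too (0.33, limma adjusted p = 0.011). ALKBH2, AT1G48980, ALKBH9B and AT2G48080 were under the level needed for a test. None of 9 listed writers and readers of RNA N6-methyladenosine passed, and their median change was 0.00. With median centring 1 rose, where 4.75% of all tested genes rose. Without library 2, 1 rose and 1 fell, where 7.05% of all tested genes rose and 9.29% fell. ECT2, a reader, was at 129 ± 4.40 and 113 ± 7.05 RPKM (SD, n = 3).

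The highest change of any gene was at AT1G64795, a small protein-coding locus without a given name, at chr1:24082579-24082848 on the plus strand. It stood at 10.6, 7.28 and 9.87 RPKM in wild type and at 302, 209 and 338 RPKM in mutant-labelled dry seeds. Every mutant-labelled library was far above every wild-type library, and the mean was 30.6-fold higher, a log2 change of 4.78 ± 0.17 (SE; limma adjusted p = 7.33e-15). Lack of overlap was a condition for naming this locus among the highest changes. Of all tested genes, 4.67% had all mutant-labelled libraries above the wild-type ones. The locus lies inside the 5′ end of ILA (ILITYHIA), on the opposite strand. ILA encodes a HEAT-repeat protein related to the translation regulator GCN1 and known for its part in immunity. ILA spans chr1:24064822-24083428 on the minus strand. The sequence of AT1G64795 is shown because its first 142 bases, in capitals, are also part of an ILA coding exon read from the other strand. They make up 70.6% of its 201 coding bases, and the remaining bases, in lower case, lie in an ILA intron. The sequence is that of RefSeq's TAIR10.1 assembly, plus strand, 5′ to 3′.
AT1G64795: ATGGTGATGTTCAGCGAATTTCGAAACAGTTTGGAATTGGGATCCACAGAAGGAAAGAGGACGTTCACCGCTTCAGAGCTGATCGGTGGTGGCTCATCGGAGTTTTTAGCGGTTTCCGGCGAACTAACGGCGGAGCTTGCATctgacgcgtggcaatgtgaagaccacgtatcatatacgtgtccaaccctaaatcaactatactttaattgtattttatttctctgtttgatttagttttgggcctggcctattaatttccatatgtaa

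ILA itself also rose. It stood at 3.38, 3.37 and 3.76 RPKM in wild type and at 12.9, 11.5 and 12.7 RPKM in mutant-labelled dry seeds. The log2 change was 1.57 ± 0.12 (SE; limma adjusted p = 1.53e-08). The groups did not overlap, which was a condition for naming ILA among the highest changes too. In reads recovered from the RPKM values, ILA had 615 to 665 reads in wild-type libraries and 1834 to 2071 in mutant-labelled ones. AT1G64795 had 33 to 47 and 768 to 1269. Per M reads of the library, the mutant-labelled mean exceeded the wild-type mean by 77.3 at ILA and by 55.0 at AT1G64795. The library kit marks strand, but whether the counting used strand is not given in the sources used here, so reads of the overlapping stretch cannot be told apart between these genes. The table holds 1 value per locus and does not show where along ILA the additional reads lie. Of 29 tested genes that start within 100 kb of AT1G64795, ILA was the 1 that rose and CYP89A5 the 1 that fell (from 69.1 to 48.0 RPKM, a call lost without any 1 wild-type library or mutant-labelled library 1). Of all tested genes 0.845% rose and 4.1% fell.

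Other large rises were scattered over the chromosomes and included several loci of unknown function. AT3G44006, annotated as an unknown protein, went from 2.45, 3.21 and 2.74 RPKM to 17, 12 and 18 RPKM, 5.60-fold higher. PDX1L4, annotated as a homologue of the vitamin B6 synthase PDX1, went from 13.1, 16.3 and 14.4 to 50, 37.9 and 58.0 RPKM, a log2 change of 1.66 ± 0.15 (SE; limma adjusted p = 3.56e-07). AT1G75945 was at 0.296, 0 and 0.233 RPKM in wild type and at 5.25, 3.44 and 6.27 RPKM in mutant-labelled seeds. In each of these 3 genes every mutant-labelled library lay above every wild-type library, with library 2 the lowest of the 3. For AT3G44006 and PDX1L4 this lack of overlap was a condition for naming them. AT1G75945 reached the level needed for a test only through its mutant-labelled libraries, which fixed its lack of overlap in advance.

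AT1G75945 lies 603 bp from SKP1A, a subunit of ubiquitin ligases, which was at 205 ± 6.94 and 212 ± 35.5 RPKM and did not pass. Beyond it AAE8, an acyl-activating enzyme gene, rose from 2.36 to 4.17 RPKM on average (log2 change 0.62, limma adjusted p = 0.00704). AT3G63052, of unknown function, rose by 1.25 ± 0.18 on the log2 scale, and AT5G35170, annotated as the chloroplast adenylate kinase 5, by 1.16 ± 0.13. The metallothionein gene MT1C, whose product binds metal ions, rose by 0.82 ± 0.15. The calmodulin-binding IQD27, the receptor-like kinase TMK3 and the CCAAT-binding factor subunit NFYB8 rose by 0.72, 0.71 and 0.70. The long non-coding RNA AT2G08340 rose by 0.77 ± 0.12. All of the genes in this paragraph that rose are stable. Non-coding loci made up 15.8% of the annotated genes that rose, 1.6% of those that fell and 1.51% of all tested genes.

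**Figure D3:**
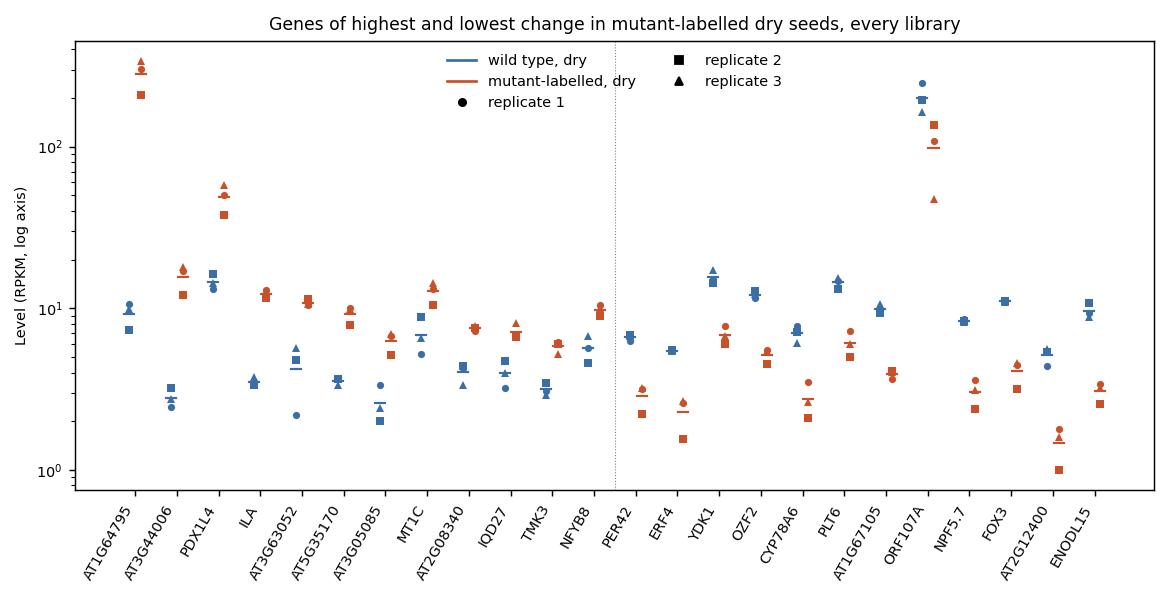
Level in every dry library (y axis, RPKM, log axis) for genes that passed without overlap and averaged 5 RPKM or more in the higher group, showing 12 at the top and 12 at the bottom by log2 change. Blue is wild type, orange mutant-labelled, marker shapes give the replicate and short lines the group means; AT1G64795 stands out at 209 to 338 RPKM against 7.28 to 10.6 RPKM.

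Among the genes that fell furthest were enzymes, transporters and regulators at modest levels. ENODL15, an early nodulin-like protein of the cell surface, went from 9.29, 10.8 and 8.81 RPKM in wild type to 3.40, 2.57 and 3.23 RPKM, a log2 change of -1.39 ± 0.13 (SE; limma adjusted p = 3.56e-07). Lack of overlap between the groups was a condition for naming this gene and the next ones, except AT4G34071. That locus reached the level needed for a test only through its wild-type libraries, which fixed its lack of overlap in advance. Of all tested genes, 24.3% had all 3 mutant-labelled libraries below the 3 wild-type ones. AT2G12400, annotated as a plasma membrane fusion protein, changed by -1.32 ± 0.14. FOX3, an oxidase of the berberine bridge enzyme family, went from 11.1 ± 0.107 to 4.07 ± 0.808 RPKM (SD, n = 3). CYP78A6, a cytochrome P450 known to promote seed growth, went from 6.99 ± 0.820 to 2.73 ± 0.690 RPKM. The polyol transporter PLT6 went from 14.5 to 6.05 RPKM, and YDK1, a GH3 enzyme that conjugates auxin to amino acids, from 15.5 to 6.82 RPKM. OZF2, a CCCH zinc finger protein, the repressor ERF4 and the peroxidase PER42 changed by -1.10, -1.0 and -0.99. The non-coding RNA AT1G67105 went from 9.87 ± 0.648 to 3.93 ± 0.241 RPKM. All of these are stable. AT4G34071, at 1.39, 1.52 and 1.02 RPKM in wild type and 0.107, 0 and 0.102 RPKM in mutant-labelled seeds, is stable too. The mitochondrial open reading frame ORF107A, at 201 ± 42.2 and 97.5 ± 46.0 RPKM, is not: it lost its call under 2 of the 3 scalings and without mutant-labelled library 1.

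Nitrate uptake and assimilation genes were among those that fell. NPF5.7, of the NRT1/PTR family of nitrate and peptide transporters, went from 8.56, 8.29 and 8.24 RPKM to 3.60, 2.37 and 3.13 RPKM (log2 change -1.23 ± 0.13, limma adjusted p = 3e-06). NIA1, a nitrate reductase, went from 4.96, 4.51 and 4.79 RPKM to 1.89, 1.42 and 1.53 RPKM (log2 change -1.14 ± 0.13, limma adjusted p = 4.42e-06). GLN1-1, a cytosolic glutamine synthetase that fixes ammonium, went from 21.2, 20.4 and 20.4 RPKM to 12.4, 7.72 and 12 RPKM. In all 3 genes the highest mutant-labelled library lay below the lowest wild-type library, as in 24.3% of all tested genes. The nitrate transporter genes NRT2.5 and NPF7.3 changed by -0.62 and -0.65, the nitrite reductase gene NIR1 by -0.62, the nitrate reductase gene NIA2 by -0.51, and NPF7.2 and NPF3.1 by -0.69 and -0.53. The calls of NPF7.2 and NPF3.1 were lost without any 1 wild-type library, that of NPF3.1 also without mutant-labelled library 3, that of NIA2 without wild-type library 1 or 2 and that of NIR1 without wild-type library 1 or 3. The other genes of this group named here are stable. Of 26 tested genes whose annotation names nitrate, nitrite or this transporter family, 8 fell and 0 rose, 30.8% against 4.1% of all genes. Their median change was -0.27, against -0.10 for all genes. With median centring 11 fell and 1 rose, where 7.62% of all tested genes fell and 4.75% rose. Without library 2, 12 fell and 0 rose, where 9.29% of all tested genes fell and 7.05% rose. This group, like the other groups by annotation words below, was drawn up after the values were seen and was given no test.

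Photosynthesis and greening genes fell in part. Of 9 tested genes on the photosynthesis list, 3 fell and 0 rose, 33.3% lower against 4.1% of all tested genes, and the list's median was -0.18. RBCS-1A, a small subunit gene of Rubisco, went from 17.2, 17.7 and 17.6 RPKM to 9.86, 7.81 and 11.2 RPKM (log2 change -0.82 ± 0.14, limma adjusted p = 0.00101). It belongs to a family of near-identical genes among which reads could be split. RCA, which activates Rubisco, went from 2.64 to 1.51 RPKM and PSAD1, a photosystem I subunit, from 1.82 to 0.839 RPKM. Their calls were lost without wild-type library 3 and without wild-type library 1, and that of RBCS-1A is stable. The same 3 genes are 3 of the 4 green tissue markers, and the other, CAB1, did not pass (log2 change 0.06). Their summed level was 23.09 to 23.73 RPKM in wild type and 14.48, 11.09 and 15.03 RPKM in the mutant-labelled libraries. RBCS-1A made up most of that sum in every dry library, so it largely repeats that gene. The part of green tissue in the change of other plastid genes was not tested. In whole seeds fewer cells of a type and less RNA per cell cannot be told apart. Of 75 tested genes annotated with photosystem, chlorophyll, light harvesting or ferredoxin, 13 fell and 0 rose, 17.3% lower against 4.1% of all. Without library 2, 17 fell and 1 rose, where 9.29% of all tested genes fell and 7.05% rose.

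PSB27-1, a photosystem II assembly factor, went from 42.9, 42.5 and 40.1 RPKM to 24.6, 16.9 and 24.5 RPKM. The ferredoxin genes FD2 and FD1, whose products carry electrons from photosystem I, changed by -0.91 and -0.80, and PSBP1 of the oxygen-evolving complex by -0.60. Chlorophyll breakdown genes were in the same group, with NYC1 at -0.53 and RCCR at -0.58, calls lost without mutant-labelled library 1 and, for NYC1, also without any 1 wild-type library. The greening regulators GLK2 and GATA22 fell from 18.3 to 11.9 RPKM and from 10.1 to 5.23 RPKM. The photorespiratory genes HPR and AGT1 changed by -0.67 and -0.75, and the plastid aldolase gene FBA1 by -0.74. Of 713 tested genes with "chloroplastic" in their annotation 52 fell, 7.29% against 4.1%, and 2 rose. Without library 2, 122 fell and 16 rose, where 9.29% of all tested genes fell and 7.05% rose. Among 232 pentatricopeptide repeat genes, most of whose products edit or process organelle RNA, 1 fell, 0.431%, and without library 2, 6 fell and 4 rose.

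Several transcription factor and regulator genes also fell, and the counts in this paragraph stand against 4.1% of all tested genes lower. Of 39 ethylene-responsive transcription factor genes 9 fell, 23.1%, and 1, ERF015, rose (a call lost without wild-type library 2). They included the cytokinin response factors CRF1, CRF5 and CRF2, at -0.83, -0.71 and -0.57. The Dof factor gene DOF3.4 went from 8.47 to 4.19 RPKM and DOF1.7 from 5.09 to 2.45 RPKM. MYB44 and MYB77, related factors of stress and auxin responses, changed by -0.67 and -0.66, the zinc finger gene ZAT10 by -0.64 and WRKY17 by -0.81. Among 210 RING finger genes 15 fell, 7.14%, and the group's median change with median centring was -0.02, with the ubiquitin ligase genes ATL45 and ATL80 at -0.99 and -0.93. Of 61 cytochrome P450 genes 11 fell and 0 rose, 18%. Without library 2, 15 ethylene-responsive factor, 31 RING finger and 16 cytochrome P450 genes fell, and 1, 5 and 2 rose, where 9.29% of all tested genes fell and 7.05% rose. Of 43 genes annotated as auxin-responsive 6 fell, 14%, among them SAUR72 at -1.05. Without library 2, 7 of them fell and 2 rose.

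The called members of the hormone lists were all lower in the deposited scaling. Of 20 tested ABA signalling genes 3 fell, 15% against 4.1% of all tested genes, with a list median of -0.20. With median centring, and also without library 2, 4 fell and 1 rose. Of all tested genes 7.62% fell and 4.75% rose with median centring, and 9.29% fell and 7.05% rose without library 2. PYL2, an ABA receptor gene, went from 1.42, 1.55 and 1.13 RPKM to 0.570, 0.937 and 0.250 RPKM, a call lost with every scaling. PP2CA, a phosphatase gene that restrains ABA signalling and is also called AHG3, went from 19.9, 18.7 and 21.5 RPKM to 14.7, 11.5 and 15.3 RPKM (log2 change -0.51 ± 0.14, limma adjusted p = 0.0318). EEL, a bZIP factor of the embryo, went from 45.5 to 32.3 RPKM. The calls of PP2CA and EEL were lost on leaving out any 1 wild-type library or mutant-labelled library 1, and that of PYL2 without wild-type library 2 or mutant-labelled library 1 or 3. Of 6 ABA metabolism genes 1 fell, 16.7%: CYP707A2, the main ABA-degrading hydroxylase of seeds, went from 13.0, 12.8 and 14.8 RPKM to 9.91, 7.16 and 8.85 RPKM, a call lost without wild-type library 3. The groups did not overlap in these genes, where 24.3% of all tested genes had all 3 mutant-labelled libraries below the 3 wild-type ones. For PYL2 this was fixed in advance, since it reached the level needed for a test only through its wild-type libraries.

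Of 13 gibberellin genes 2 fell, 15.4% against 4.1% of all tested genes, both for DELLA proteins, which repress gibberellin responses. RGL3 went from 17.4, 14.7 and 17.7 RPKM to 10.6, 9.04 and 9.92 RPKM, and GAI from 5.60, 6.01 and 6.37 RPKM to 4.24, 2.97 and 3.68 RPKM. Both were stable, with log2 changes of -0.69 ± 0.13 and -0.60 ± 0.13 (SE; limma adjusted p = 0.00286 and 0.00752). RGL2, the DELLA protein most tied to germination, was at 2.71 ± 0.424 and 2.34 ± 0.467 RPKM and did not pass.

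The dormancy and maturation list had 1 riser and 1 faller among 10 tested genes, where 0.845% of all tested genes rose and 4.1% fell. Without library 2 it had 1 and 2, where 7.05% of all tested genes rose and 9.29% fell. FUS3, a B3 factor that drives seed maturation and storage, went from 6.72, 8.57 and 8.53 RPKM to 12.4, 11.9 and 14.6 RPKM. The groups did not overlap, and 4.67% of all tested genes had all mutant-labelled libraries above the wild-type ones. Its log2 change was 0.65 ± 0.13 (SE; limma adjusted p = 0.00612). That call was kept under all 3 scalings and lost without wild-type library 1, and with no filter or with the spread of all 12 libraries. AT3G05085, a long non-coding RNA gene 4453 bp upstream of FUS3 on the same strand, rose too, from 3.37, 2.00 and 2.42 RPKM to 6.72, 5.12 and 6.91 RPKM. PIF1, which represses germination in the dark, fell from 18.8 ± 0.313 to 13.3 ± 0.421 RPKM, a call lost on leaving out any 1 wild-type library or mutant-labelled library 3. ABI3, the other B3 factor of maturation fixed for naming, was at 22.7, 21.8 and 22.1 RPKM and 17.7, 15.7 and 15.1 RPKM. It lay lower in every mutant-labelled library, as 24.3% of all tested genes did, but did not pass (log2 change -0.44, limma adjusted p = 0.0517). Without library 2 it passed (-0.42, limma adjusted p = 0.00323). DOG1, the dormancy regulator, ABI5 and HSFA9, a seed heat shock factor, were at -0.31, -0.20 and -0.40 and did not pass, and HSFA9 passed without library 2 (-0.31, limma adjusted p = 0.00262).

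Among the seed storage and desiccation lists the share of genes that fell was near the 4.1% of all tested genes. Of 17 storage protein and oleosin genes 1 fell, 5.9%, the oleosin gene OL3 (OLEO3), from 38.8 ± 1.11 to 24.0 ± 5.67 RPKM. Without library 2, 3 of the 17 fell and 3 rose, and with median centring 2 fell and 2 rose. Of all tested genes 9.29% fell and 7.05% rose without library 2, and 7.62% fell and 4.75% rose with median centring. The cruciferin genes CRC and CRA1 were at 33800 and 26000 RPKM in wild type and at 34000 and 23800 RPKM in mutant-labelled seeds, where library 2 was the lowest for both. Of 20 LEA and desiccation genes 1 fell, 5%, and without library 2, 3 fell and 2 rose. The 1 gene was the LEA gene AT4G36600, from 769, 705 and 717 RPKM to 526, 373 and 482 RPKM, a call lost without any 1 wild-type library. EM6, the most studied LEA gene of the embryo, was at 18400 ± 1260 and 17400 ± 3590 RPKM. None of 14 heat shock genes passed in the deposited scaling, 1 fell and 2 rose with median centring, and 2 fell and 3 rose without library 2. HSP17.7 was at 7160 ± 410 and 6880 ± 1420 RPKM. CAT3, a catalase gene and the 1 faller of 10 antioxidant and protein repair genes, went from 667, 626 and 651 RPKM to 423, 338 and 359 RPKM (log2 change -0.80 ± 0.17, limma adjusted p = 0.0073), a call lost without wild-type library 1. OL3 and IPS1 are stable. IPS1, which makes inositol phosphate, fell from 18.2 to 11 RPKM, 1 of 6 genes of its list (3 with median centring, 4 without library 2). The SE of the log2 change was 0.25 for CRC, CRA1 and EM6.

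**Figure D4:**
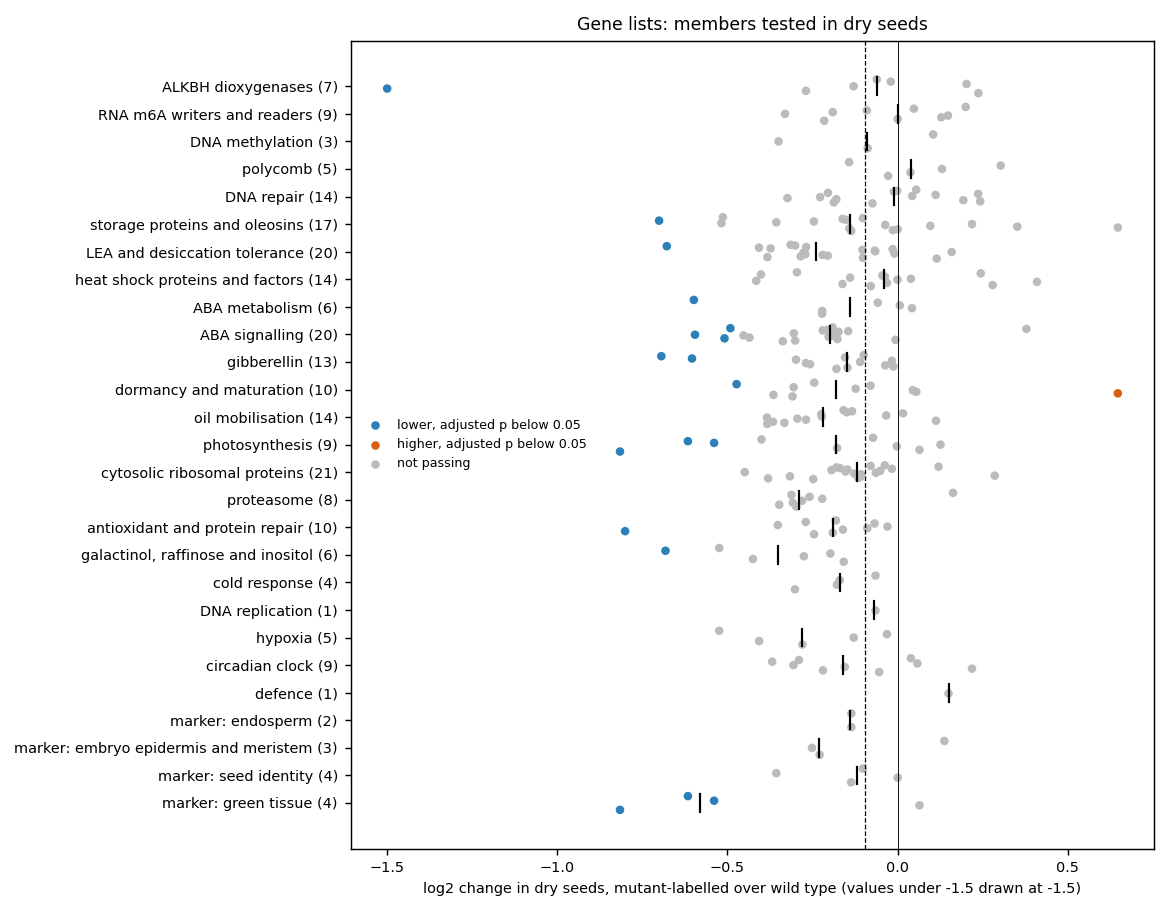
Log2 change in dry seeds (x axis, mutant-labelled over wild type) of every tested member of each gene list, with the number tested in brackets. Blue and orange points passed as lower and higher, grey points did not, black ticks are list medians and the dashed line is the median of all tested genes, -0.10; 3 of 9 photosynthesis genes are blue.

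The remaining lists had no called member in the deposited scaling, where 4.94% of tested genes were called. They were DNA methylation (3 tested), polycomb (5), DNA repair (14), oil mobilisation (14), cytosolic ribosomal proteins (21), proteasome (8), cold response (4), DNA replication (1), hypoxia (5), circadian clock (9) and defence (1). Their medians ran from -0.29 for the proteasome to 0.15 for the single defence gene, TGG1. All flavonoid genes were under the level needed for a test. The most abundant members were ROS1, a DNA demethylase gene of the 5-methylcytosine pathway, at 9.31 and 7.15 RPKM, AT5G22470, a poly(ADP-ribose) polymerase gene, at 693 and 555 RPKM, ICL, of the glyoxylate cycle, at 2940 and 2260 RPKM, RPN10 of the proteasome at 89.4 and 70.6 RPKM, and ADH1 at 313 and 259 RPKM. Others were MSI1 at 14.9 and 13.5 RPKM, RPL9B at 235 and 220 RPKM, LTI65 at 319 and 285 RPKM, RNR1 at 4.53 and 4.28 RPKM and ELF4 at 66.7 and 52.0 RPKM. Calls appeared in these lists under other settings, where more of all tested genes were called. With median centring 7.62% of all tested genes fell and 4.75% rose, and without library 2, 9.29% fell and 7.05% rose. With median centring 3 oil mobilisation, 2 hypoxia, 2 ribosomal protein, 1 proteasome and 1 circadian clock gene fell, and 1 gene each of the polycomb, DNA repair, ribosomal protein and circadian clock lists rose. Without library 2, 5 oil mobilisation, 3 proteasome, 2 hypoxia, 2 ribosomal protein, 1 DNA methylation, 1 DNA repair and 1 circadian clock gene fell, and 2 ribosomal protein genes and 1 gene each of the polycomb, proteasome, circadian clock and defence lists rose. Of the genes just named, ICL (log2 change -0.35, limma adjusted p = 0.00403), AT5G22470 (-0.26, 0.0127), ROS1 (-0.44, 0.0134), RPN10 (-0.21, 0.0314) and ELF4 (-0.21, 0.0334) passed as lower there. TGG1 passed as higher there (0.33, limma adjusted p = 0.00286). RPN10 and ELF4 also passed with median centring. The endosperm marker EPR1 was at 2740, 2130 and 1860 RPKM in wild type and 2050, 2370 and 1680 RPKM in mutant-labelled seeds, and the embryo epidermis marker ATML1 at 6.04 ± 0.104 and 5.02 ± 0.432 RPKM.

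Genes that fell had fewer introns than most. Of the 504 genes 501 had an annotated structure, with a median of 2 introns, and 32.3% had none. All tested genes had a median of 4 introns, and 10.4% had none. Among intronless genes 12.7% fell and 1.57% rose, and among genes with 11 introns or more 0.977% fell and 0.586% rose. The median change ran from -0.16 in intronless genes to -0.05 in genes with 11 introns or more. In single libraries it ran from -0.05 to 0.04 in mutant-labelled library 1, from -0.35 to -0.16 in library 2 and from -0.10 to -0.02 in library 3. With median centring the calls were 204 lower and 67 higher among 1276 intronless genes, and 64 lower and 93 higher among 2048 genes with 11 introns or more. Without library 2 they were 223 lower and 106 higher, and 98 lower and 93 higher. Of all tested genes 7.62% fell and 4.75% rose with median centring, and 9.29% fell and 7.05% rose without library 2. Level moved with the change too: genes with a mean of 100 RPKM or more had a median change of -0.19, against -0.04 under 2 RPKM. In single mutant-labelled libraries these medians were -0.06 and 0.04 in library 1, -0.48 and -0.14 in library 2 and -0.03 and -0.00 in library 3. The scale log2(RPKM + 1) understates changes of low genes, and its part in this was not tested. By exon length the median did not run one way, at -0.04 both under 1000 bp and from 3000 bp up, and at -0.12 and -0.11 in the classes between. The part of level and length in the relation with introns was not tested.

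**Figure D5:**
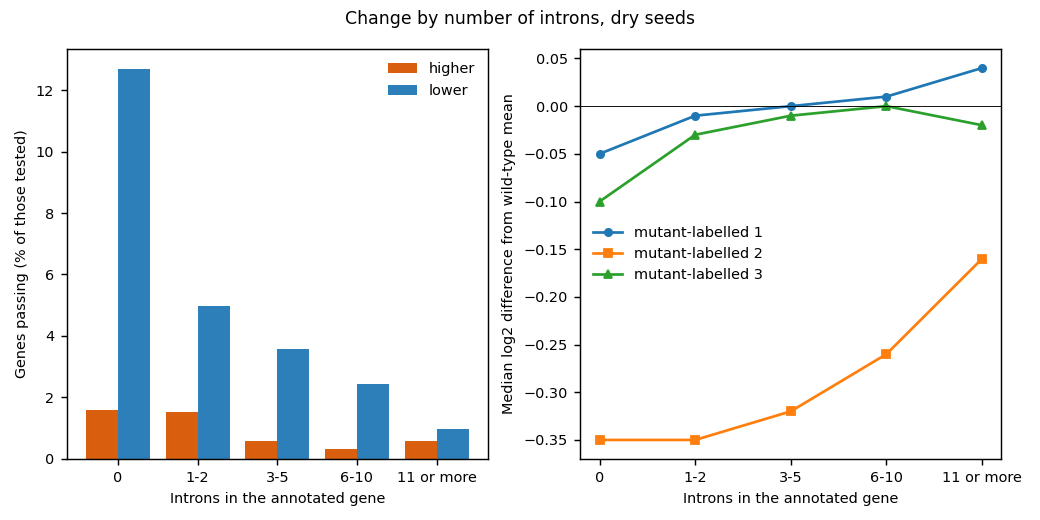
Left, percentage of tested genes that rose (orange) or fell (blue) by number of annotated introns (x axis). Right, median log2 difference from the wild-type mean in mutant-labelled libraries 1, 2 and 3; library 2 lies lowest in every class, from -0.35 for intronless genes to -0.16 for genes with 11 introns or more.

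Calls were spread over the nuclear chromosomes, at 5.76% of tested genes on chromosome 1, 4.6% on chromosome 2, 4.88% on chromosome 3, 5.42% on chromosome 4 and 3.93% on chromosome 5. Neighbouring tested genes were both called in 48 cases, both lower in 36, both higher in 3 and in opposite directions in 9. Of all tested genes 4.94% were called, 4.1% as lower and 0.845% as higher. The 48 cases were not set against all neighbouring pairs, so whether they are many was not tested. The 3 higher pairs were ILA with AT1G64795, FUS3 with AT3G05085, and ATO2 with AT1G31040, a PLATZ factor gene. The call of ATO2 was lost without any 1 wild-type library or mutant-labelled library 1.

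The stratified libraries give the same genotype difference in samples that the dry comparison did not use. In a fit of those 6 libraries alone, 139 of 14582 genes passed, 0.953%. Of the dry-seed calls 10 also passed there, all with the same sign. That number was 0 with the replicate block, 2 with median centring, 4 without stratified wild-type library 1 or 2 or mutant-labelled library 1, 2 without mutant-labelled library 3 and 38 without wild-type library 3. AT1G64795 was at 0.449 ± 0.442 RPKM in stratified wild type and 62.9 ± 36.6 RPKM in mutant-labelled seeds (SD, n = 3; log2 change 5.34, limma adjusted p = 7.38e-29). AT1G75945 was at 1.21 ± 0.533 and 26.4 ± 6.69 RPKM, and AT3G44006 at 0.891 ± 0.723 and 3.87 ± 2.06 RPKM. AT5G01780 was at 5.85 ± 1.35 and 0.391 ± 0.137 RPKM (log2 change -2.29, limma adjusted p = 7.43e-06). AT1G67105 and PER42 were lower at -1.61 and -1.89, but their stratified groups overlapped. AT1G67105 was at 18.3 ± 7.46 and 6.87 ± 7.11 RPKM and PER42 at 33.6 ± 24.8 and 6.74 ± 3.15 RPKM. HTR2, a histone H3 gene, ATPRX Q, a plastid peroxiredoxin gene, CAO, here the gene of a chloroplast signal recognition particle subunit, and the mitochondrial NAD2A made up the 10. The stratified groups overlapped in ATPRX Q (31.0 ± 23.0 and 7.54 ± 4.18 RPKM), CAO (14.7 ± 10.8 and 2.97 ± 1.19 RPKM) and NAD2A (1.43 ± 2.16 and 4.11 ± 1.77 RPKM) too. In HTR2 they did not (24.2 ± 21.9 and 1.31 ± 0.596 RPKM). The dry-seed call of HTR2 was lost under all 3 scalings and without mutant-labelled library 2, that of CAO without any 1 wild-type library or mutant-labelled library 2, that of ATPRX Q without wild-type library 1, and that of NAD2A without wild-type library 2 or 3 or mutant-labelled library 1.

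Most dry-seed calls did not pass in stratified seeds. Of 87 risers that could be tested there 30 were higher and 4 passed. Of 446 fallers 272 were lower and 6 passed. Their stratified medians were -0.20 and -0.17, where the median of all genes was -0.20. ILA was at 18.1 ± 5.69 and 15.6 ± 3.37 RPKM in stratified seeds, where AT1G64795 still differed, and PDX1L4 was at 112 ± 38.3 and 146 ± 56.2 RPKM. NIA1 was at 29.3 ± 6.52 and 31.5 ± 14.1 RPKM. A difference between the stages was tested over all 12 libraries, where 4 of 15145 genes passed limma's interaction test and 1057 had an unadjusted p under 0.05. None of the 80 named genes was among the 4; for ILA the interaction was -1.74 (limma adjusted p = 0.358). A change in dry seeds that did not pass in stratified seeds is therefore not shown to differ between the stages. Ribosomal RNA took 15.38% of reads in stratified wild-type library 3 and 15.11% and 29.31% in mutant-labelled libraries 1 and 3, and stratified replicates varied more than dry ones.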

How the data were processed

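The deposited values are RPKM as the authors made them (the reads of a locus scaled by its transcript length and by library size), for 32833 loci in 12 libraries. Per the labels' protocols, poly(A) RNA was captured with oligo-dT beads and the library kit was directional. STAR, DESeq2 and TAIR10 appear in the submitters' processing notes, without versions or roles. The use of strand in counting is not given in the sources used here.

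Names, positions and sequence came from RefSeq's TAIR10.1 assembly, whose nuclear chromosomes have the lengths of TAIR10 and in which 32548 loci were found. Its exon lengths turned 98.53% of 94891 values under 2 RPKM into whole numbers of reads (tolerance 0.05 reads, 10% by chance), which gave the reads per library. Counts of reads describe depth here and were not tested.

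The 6 dry libraries were compared with limma 3.58.1 (R 4.3.3) after the transformation log2(RPKM + 1), using a mean-variance trend, 4 residual degrees of freedom and Benjamini-Hochberg adjustment, at a threshold of 0.05. The 12307 genes that reached 1 RPKM in 3 or more libraries were tested. This scale understates changes of low genes. The fit was tested on simulated reads, where 99% of genes changed 2-fold and 100% of those changed 3-fold were recovered. Of the calls there 5.7% were unchanged genes. All simulated libraries shared the same mean profile apart from the changed genes, and none stood apart from the rest. The simulation therefore does not measure the error of the calls in the real libraries. No replicate pair agreed within sampling noise (chi-square per degree of freedom 3.073 to 79.38). Groups and replicate numbers came from the titles.

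Named genes were the ALKBH family, the 12 highest and 12 lowest changes without overlap and with a mean of 5 RPKM, genes passing in both stages, up to 2 called members per list and direction or else the most abundant member, and 8 seed regulators and storage genes. Genes of the annotation-word groups, and AT4G34071, SKP1A, AAE8 and EEL, were named after their values were seen. The comparison and the 30 gene lists were chosen with earlier results of these data known. Alternatives were the pseudocount, filter, scaling, variance moderation, replicate block, all 12 libraries and leaving out each library.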

Additional observations from a re-analysis of the deposited data

How the results depend on the processing

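Of 104 higher and 504 lower genes in dry seeds, the numbers became 13 and 31 with no filter, 585 and 938 with median centring, 730 and 843 with quantile normalization, 811 and 709 with ribosomal RNA left out, and 4 and 3 with the spread of all 12 libraries. Leaving out 1 library gave 47 to 868 higher and 296 to 1143 lower genes. Counts over 1.5 times away were 60 higher and 304 lower without wild-type library 1, 322 and 296 lower without wild-type libraries 2 and 3, 47 higher without mutant-labelled library 1, and 868 and 1143 without mutant-labelled library 2. The share of calls that were higher was 46.4% with quantile normalization and 53.4% with ribosomal RNA left out, against 17.1%. The scaling without ribosomal RNA also left out reads outside annotated loci. Alternatives chosen after seeing the data gave 485 and 754 with the replicate block and median centring together, and 860 and 1139 with median centring without mutant-labelled library 2.

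Same-numbered dry libraries did not deviate together (r = 0.037, -0.102 and 0.081). With 3 libraries per group and mutant-labelled library 2 apart from the rest, this cannot settle whether the numbers pair the samples. The replicate block gave 173 higher and 724 lower genes and changed no call of a named gene. Against 10 dry-seed genes that also passed in stratified seeds, the count was 0 with the replicate block, 2 with median centring (chosen after seeing the data), and 2 to 38 on leaving out 1 stratified library. It was 38 without wild-type library 3, 2 without mutant-labelled library 3 and 4 without wild-type library 1 or 2 or mutant-labelled library 1.

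Some uncalled values near 0 changed sign. With median centring AT4G36090 was at 0.07, ALKBH10B at 0.03, HSP17.7 at 0.01 and RNR1 at 0.02, and the replicate block with median centring gave the same 4 values. With quantile normalization AT4G36090 was at 0.07, HSP17.7 at 0.10, RPL9B at 0.03, RNR1 at 0.01, CRC at -0.11, and LTI65 and CRA1 at 0.00. With ribosomal RNA left out AT4G36090 was at 0.11, ALKBH10B at 0.04, HSP17.7 at 0.07, RPL9B at 0.04, RNR1 at 0.06, EPR1 at 0.01, EM6 at 0.05 and CRA1 at 0.01. With median centring without mutant-labelled library 2 AT4G36090 was at 0.12, ALKBH10B at 0.00, HSP17.7 at 0.10, RPL9B at 0.04 and EM6 at 0.09. On leaving out 1 library AT4G36090 ran from -0.12 to 0.11, HSP17.7 from -0.20 to 0.10, RPL9B from -0.21 to 0.04, EPR1 from -0.26 to 0.02, CRC from -0.05 to 0.10 and EM6 from -0.20 to 0.08. The cause of these shifts was not tested.

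Of 72 named genes tested, 37 lost their call with the spread of all 12 libraries and 26 with no filter. At 17.76 to 22.56 M reads per dry library, a floor of 3 reads for a transcript of 1 kb is 0.133 to 0.169 RPKM, so lower levels are not resolved. Floors cover counting error only.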
